A study of Mus musculus with 8 samples.

Results

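Baiap3 and 9 genes of the dense-core vesicle pathway were described in the mouse hippocampus, 10 genes of the 20802 in the table and all 10 among the 18865 tested. Baiap3 was chosen by its lower values in the Anesthesia group in this same comparison, so its values are a description and no test is given for it. The other 9 genes (Cadps, Cadps2, Chga, Chgb, Scg2, Scg3, Scg5, Pcsk1 and Cpe) were listed for their function, and the question was whether the lower level of Baiap3 was shared by them. RNA was sequenced from the hippocampus of 8 male C57BL/6 mice at PND28, with 4 mice each in the Anesthesia group and the Control group. Each Anesthesia mouse had received ketamine at 35 mg per kg by intraperitoneal injection on 5 consecutive days starting at PND16. The protocol gives the Control mice saline, whereas their sample titles call them untreated. The library kit is given differently by the labels (TruSeq RNA v2) and by the study's methods (a stranded total RNA kit). Values are counts per gene that the authors normalized with DESeq2, called normalized counts here, and the step between low values places the depth at approximately 15400000 to 22100000 reads per library.

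Dense-core vesicles carry neuropeptides, neurotrophins and granins from the trans-Golgi network to sites of release along axons and dendrites. Granins help to form and load the vesicle, convertases and carboxypeptidases cut the peptide precursors inside it, and priming proteins with a MUN domain make it ready to fuse with the plasma membrane after calcium entry. BAIAP3 belongs to the same MUN domain family as the Munc13 and CAPS proteins and takes part in returning dense-core vesicle proteins to the trans-Golgi network.

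The markers of the hippocampal fields were present in every library, with 6 of 6 CA3 and 6 of 6 dentate granule neuron genes analysed. The summed dentate markers, of which Dgkh was the most abundant, lay between 9316 and 19272 normalized counts, and the summed CA3 markers, led by Cpne4, between 2849 and 5451. Libraries nevertheless stood apart in tissue makeup. The 12 choroid plexus markers, led by Ttr, summed to 87325, 4982, 4607 and 10009 normalized counts in Anesthesia replicates 1 to 4 and to 4390, 46115, 104282 and 101873 in Control replicates 1 to 4. Anesthesia replicate 1 and Control replicates 2, 3 and 4 were therefore rich in choroid plexus RNA, and the other 4 libraries were poor in it. Anesthesia replicate 3 was also set apart, with 827.8 normalized counts of Lamp5 against 198.8 to 289.9 in the other mice, and with the highest values of Stx1a (2329) and Vamp2 (2482).

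Baiap3 (ENSMUSG00000047507, chromosome 17, 25242659 to 25256364 on the minus strand of GRCm38) had 110.6, 66.0, 123.3 and 100.3 normalized counts in the 4 Anesthesia mice and 170.3, 175.7, 266.8 and 184.4 in the 4 Control mice. All 4 Anesthesia mice lay below all 4 Control mice, with Anesthesia replicate 2 the lowest and Control replicate 3 well above the other Control mice. The group means were 100.1 ± 24.6 and 199.3 ± 45.4 (SD, n = 4 each), a ratio of 0.502, and the difference of the log2 means was -0.999. Of all genes tested, 0.551% had a lower log2 fold change, and 2.23% had groups that did not overlap with Anesthesia lower. Because Baiap3 was chosen on this comparison, nothing is read from these shares. In bulk tissue, fewer cells that express a gene and less RNA of it per cell cannot be told apart, which holds for every gene described here. Baiap3 was also the lowest of the 10 genes per kb of transcript, with 32.2 normalized counts per kb over the 8 mice.

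**Figure D1:**
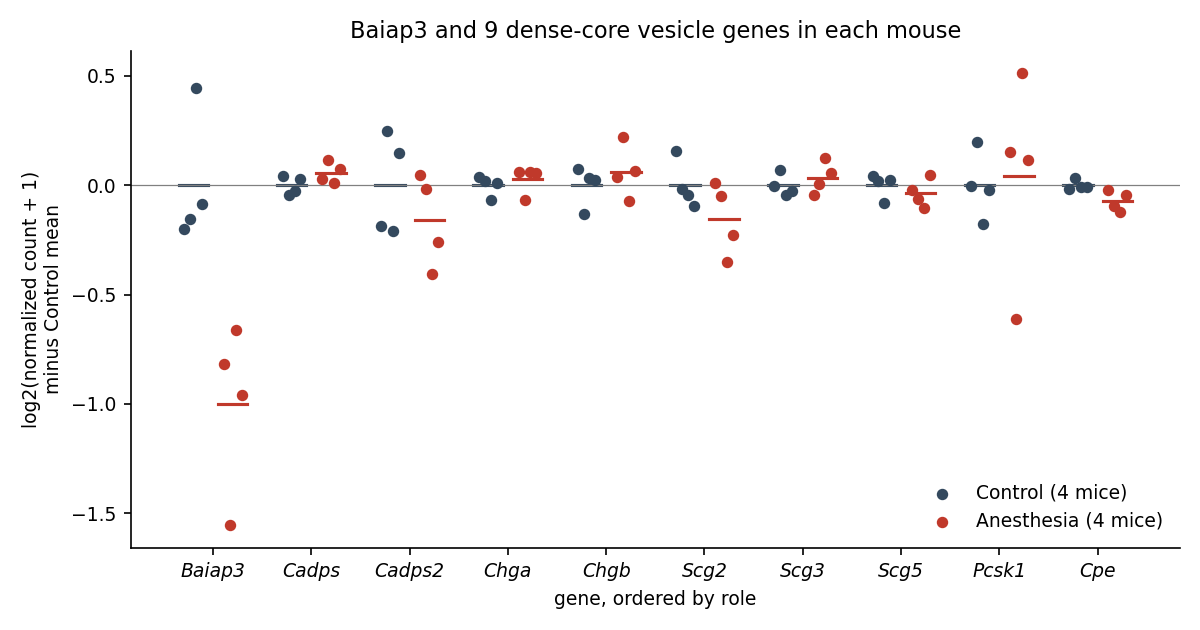
Each point is a mouse, plotted as log2(normalized count + 1) minus the Control mean of the same gene, for Baiap3 and the 9 other genes ordered by role, and the short lines are group means. The Anesthesia mice lie between -1.56 and -0.66 for Baiap3, and the group means of the 9 other genes lie between -0.16 and 0.06 of the Control mean.

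Cadps and Cadps2, which encode the CAPS proteins that prime dense-core vesicles, were listed with Baiap3 in the MUN domain family. Cadps (chromosome 14) had 7990, 8479, 7887 and 8239 normalized counts in the Anesthesia mice and 8070, 7595, 7681 and 7989 in the Control mice. The groups overlapped, and all 8 values lay close together. The log2 fold change was 0.06 (limma, adjusted p = 0.755, 95% interval -0.05 to 0.16, standard error 0.05). Cadps2 (chromosome 6), whose product promotes the release of neurotrophins, had 3093, 2963, 2262 and 2503 in the Anesthesia mice and 2634, 3565, 2591 and 3318 in the Control mice. Here the spread was wider, Anesthesia replicate 3 was lowest, Control replicate 2 was highest, and the groups overlapped. Its log2 fold change of -0.16 (limma, adjusted p = 0.745, standard error 0.13) had a 95% interval from -0.44 to 0.12. It was -0.08 without Anesthesia replicate 3 or Control replicate 2, and -0.06 with the choroid plexus covariate. Per kb of transcript, Cadps reached 1463 normalized counts and Cadps2 576.8.

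The granins, acidic proteins that aggregate in the trans-Golgi network and serve as both matrix and peptide precursors, showed no shared lower level. Chga had 1059, 970.5, 1062 and 1058 normalized counts in the Anesthesia mice and 1043, 1030, 970.3 and 1025 in the Control mice. Chgb, the most abundant granin here at 2500 normalized counts per kb, had 6874, 7782, 6353 and 7001 against 7038, 6111, 6842 and 6794. Both genes overlapped between the groups, and in both the lowest mice of the groups were within a few percent of each other. Their log2 fold changes were 0.03 (95% interval -0.10 to 0.16) and 0.06 (95% interval -0.09 to 0.22). The adjusted p-values from limma were 0.908 and 0.812. When single mice were left out, Chga lay between 0.006 and 0.06 and Chgb between 0.011 and 0.108.

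Scg2, the precursor of secretoneurin, had 3731, 3576, 2899 and 3160 normalized counts in the Anesthesia mice and 4126, 3658, 3584 and 3465 in the Control mice. Anesthesia replicates 3 and 4 were the lowest of the 8, and Anesthesia replicate 1 lay above 3 of the Control mice. The log2 fold change was -0.15 (limma, adjusted p = 0.669, 95% interval -0.35 to 0.04, standard error 0.09), and it was -0.09 without Anesthesia replicate 3 and -0.10 without Control replicate 1. Scg3, which links granin aggregates to the vesicle membrane, had 3085 ± 157.9 against 3009 ± 107.6 normalized counts, and Scg5, a chaperone of the convertase encoded by Pcsk2, had 2265 ± 100.3 against 2319 ± 88.8 (SD, n = 4 each). In both the groups overlapped, with log2 fold changes of 0.04 (95% interval -0.09 to 0.16) and -0.03 (95% interval -0.16 to 0.09). The adjusted p-values from limma were 0.869 and 0.874. When single mice were left out, Scg3 lay between 0.005 and 0.062 and Scg5 between -0.062 and -0.012. Scg3 was at 0.004 with the choroid plexus covariate.

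Of the processing enzymes, Pcsk1 varied most between mice. This gene, which encodes the prohormone convertase that makes the first cuts in many peptide precursors, had 802.1, 472.7, 1030 and 783.4 normalized counts in the Anesthesia mice and 721.1, 830.0, 638.6 and 712.2 in the Control mice. The lowest and the highest of the 8 values were both in the Anesthesia group, and the Control mice lay between them. Within the Anesthesia group the order of the mice at both ends was that of Baiap3, replicate 2 lowest and replicate 3 highest, whereas in the Control group replicate 3 was highest for Baiap3 and lowest for Pcsk1. The log2 fold change of Pcsk1 was 0.04 (limma, adjusted p = 0.959, 95% interval -0.39 to 0.48, standard error 0.20). Its sign changed without Anesthesia replicate 3 (-0.11) and without Control replicate 3 (-0.02).

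Cpe, the carboxypeptidase that trims basic residues from cut peptides, was by far the most abundant of the 10 genes at 17005 normalized counts per kb. It had 36328, 34506, 33841 and 35777 normalized counts in the Anesthesia mice and 36407, 37751, 36730 and 36660 in the Control mice. All Anesthesia mice were below all Control mice, but the highest Anesthesia mouse and the lowest Control mouse were separated by less than the spread within either group. The log2 fold change was -0.07 (limma, adjusted p = 0.699, 95% interval -0.17 to 0.03, standard error 0.05).

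Across the 9 genes other than Baiap3, 5 had a log2 fold change above 0 and 4 below, with a median of 0.03 against -0.004 over all genes tested. This median was -0.01 without Anesthesia replicate 3, -0.02 without Control replicate 3 and -0.006 with the hypothalamus marker covariate. In the limma comparison 0 of the 9 had an adjusted p under 0.05, as did 0 of all 18865 genes (0%), and 0 of the 9 had an unadjusted p under 0.05, against 1513 of all genes (8.02%). The study itself reported differentially expressed genes from these mice with DESeq2 at an adjusted p under 0.05. The count of 0 therefore belongs to the limma comparison and does not mean that no gene differed. The groups did not overlap in 1 of the 9, Cpe, against 5.04% of all genes in either direction. The lowest bound of any of the 9 intervals was -0.44, for Cadps2, and differences within the intervals remain possible. With a hypothalamus marker covariate, described below, Cadps2 was at -0.52 and Scg2 at -0.40, and Baiap3 was at -0.74. The sums of those markers separated the groups, so the covariate cannot be told apart from the group. Nothing on a shared lower level is read from these values. Per mouse, the median of the 9 genes relative to the Control mean was 0.03, -0.05, -0.07 and 0.06 on the log2 scale for Anesthesia replicates 1 to 4 and 0.04, 0.02, -0.05 and 0.01 for Control replicates 1 to 4, with full overlap.

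The rest of the pathway was followed in 95 further genes listed by role, of which 93 were tested, Trh had a mean under 10 and Gal was not analysed here. Of the 93, 48 had a log2 fold change above 0 and 45 below, the median was 0.004, and 0 had an adjusted p under 0.05 in limma. An unadjusted p under 0.05 was found in 11 (7 higher and 4 lower in the Anesthesia group), and 6, all higher in the Anesthesia group, had groups that did not overlap. Over all genes tested, 8.02% had an unadjusted p under 0.05 (897 higher and 616 lower) and 5.04% had groups that did not overlap (530 higher and 420 lower).

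In the MUN domain family, Unc13a and Unc13b, which encode the Munc13 proteins that prime synaptic vesicles, stood on the other side of the Control mice from Baiap3. Unc13a had 6100, 7779, 7204 and 6204 normalized counts in the Anesthesia mice and 5685, 6099, 5546 and 5601 in the Control mice. The groups were separated by a narrow gap between Anesthesia replicate 1 and Control replicate 2. The log2 fold change of Unc13a was 0.24 (limma, adjusted p = 0.62, standard error 0.08), whereas a per-library correction for transcript length and GC content brought it to 0.08. Unc13b also did not overlap between the groups, at a log2 fold change of 0.19 (0.09 after that correction, 0.12 without Anesthesia replicate 3), with Anesthesia replicate 3 far above the rest at 3188 normalized counts. Unc13c and Unc13d, at 0.24 and -0.14, overlapped widely, and without Baiap3 the median of the family was 0.12. That median was 0.01 without Anesthesia replicate 3, 0.05 after the length and GC correction and 0.27 with the hypothalamus marker covariate. Adgrb1, which encodes the adhesion receptor BAI1 that gave BAIAP3 its name as a binding partner, had 2197, 2413, 3007 and 2436 normalized counts in the Anesthesia mice and 1913, 1959, 1835 and 2157 in the Control mice. All Anesthesia mice were above all Control mice, opposite to Baiap3, with a log2 fold change of 0.35 (limma, adjusted p = 0.568, standard error 0.09) that was 0.14 after the length and GC correction and 0.55 with the hypothalamus marker covariate.

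Among the 7 granins and chaperones the median log2 fold change was 0.04, and the largest differences belonged to genes outside the 10. Pcsk1n, which encodes the inhibitor proSAAS of the convertase made by Pcsk1, had 831.1, 808.8, 1057 and 840.8 normalized counts in the Anesthesia mice and 668.4, 685.9, 649.6 and 683.4 in the Control mice. All 4 Anesthesia mice were higher, with a wide gap between the groups. Its log2 fold change was 0.39 (limma, unadjusted p = 0.00126, adjusted p = 0.565, standard error 0.09). Leaving out any single mouse placed it between 0.30 and 0.43. Vgf, a granin-like peptide precursor induced by neurotrophins, had a log2 fold change of 0.36 with groups that overlapped, because Control replicate 4 (987.4) exceeded Anesthesia replicate 2 (957.9).

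The 11 processing enzymes had a median log2 fold change of -0.01 (-0.05 to 0.02 when single mice were left out), between -0.24 for Qpct, which forms pyroglutamate ends, and 0.18 for Pcsk5, a convertase of the secretory pathway. Pcsk5 was at 0.07 after the length and GC correction and at -0.02 with the hypothalamus marker covariate. It was at 0.11 without Anesthesia replicate 1 and at 0.27 without Anesthesia replicate 2. In the 22 genes of vesicle formation and sorting the median was 0.02, and all lay between -0.17 and 0.19. Ptprn, which encodes the vesicle membrane protein IA-2, was at the upper end (0.19, groups not overlapping, 0.09 after the length and GC correction, 0.12 without Anesthesia replicate 3), and Rab2a, a Rab needed for vesicle maturation, was near the lower end (-0.16, groups overlapping, -0.10 without Anesthesia replicate 3, -0.30 with the hypothalamus marker covariate). The 24 genes of docking and release had a median of 0.04, which was -0.01 without Anesthesia replicate 3 or Control replicate 3 and with the hypothalamus marker covariate, and 0.009 with the choroid plexus covariate. Among them Snap25 was the most abundant per kb (7055) at 0.13 (0.06 without Anesthesia replicate 3, 0.22 with the hypothalamus marker covariate). Sytl4, which encodes granuphilin, a Rab27 effector at the vesicle surface, had 31.0, 15.5, 24.0 and 28.2 normalized counts against 48.5, 25.0, 56.4 and 36.1. Its log2 fold change was -0.71 (limma, adjusted p = 0.622, standard error 0.30), the groups overlapped through Control replicate 2, and it was the least abundant gene of its list at 8.82 per kb.

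Of the 21 tested cargo genes 15 were below 0 and 6 above 0, against 9580 and 9285 of all 18865 genes. Their median was -0.16 with an SD between mice of 0.174, and it ranged from -0.21 to -0.04 when single mice were left out. Pomc, the precursor of melanocortins and endorphin, had 19.5, 33.8, 30.0 and 17.8 normalized counts in the Anesthesia mice and 59.3, 30.4, 84.6 and 111.7 in the Control mice. Control replicates 1, 3 and 4 were above every Anesthesia mouse, and Control replicate 2 lay within the Anesthesia range. The log2 fold change of Pomc was -1.36 (limma, unadjusted p = 0.00436, adjusted p = 0.568, standard error 0.38). Pomc is also the leading hypothalamus marker used here, and with the covariate made from those markers it was at -0.55 and the cargo median at -0.36. Cort, the somatostatin-like peptide of cortical interneurons, was at -0.62 with overlapping groups, while the abundant hippocampal peptides Cck, Sst and Npy were at -0.14, -0.05 and 0.15. Npy was at 0.06 without Anesthesia replicate 3, and Cck was at -0.09 without Control replicate 2 and -0.33 with the hypothalamus marker covariate. Among 10 transcription factors of secretory genes the median was 0.003, and -0.043 after the length and GC correction. Crtc1, a coactivator of CREB, was at 0.37 (0.22 after the length and GC correction, 0.57 with the hypothalamus marker covariate), Insm1 was at 0.47, Insm2 at -0.55, and Creb1, the most abundant of them per kb, at -0.02. The groups of Insm1 were separated only by 61.4 against 61.0 normalized counts, and its log2 fold change was 0.27 without Control replicate 3 and 0.16 with the hypothalamus marker covariate. Insm2 was at -0.34 without Anesthesia replicate 4.

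**Figure D2:**
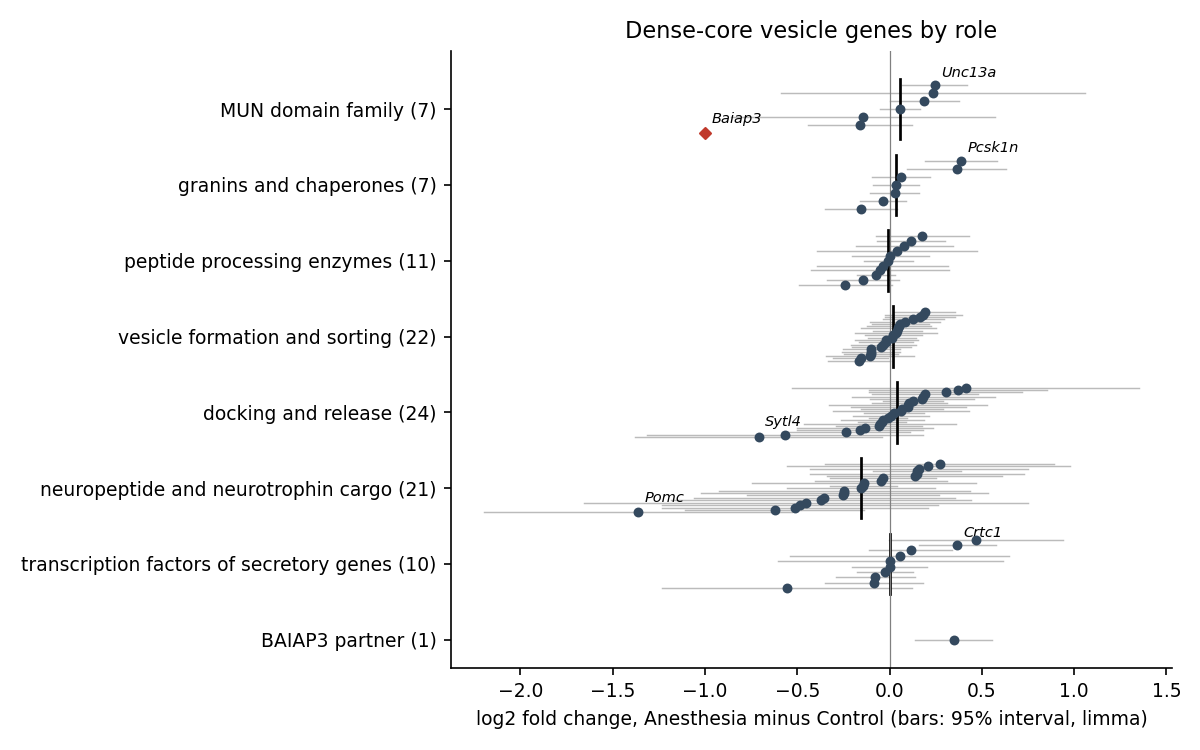
Each point is a tested gene, placed by its log2 fold change (Anesthesia minus Control) with its 95% interval from limma, in rows by role with the number of genes, and black lines are the medians of lists with more than 1 gene. Baiap3 is the diamond at -0.999, drawn without an interval, and of the other genes only Pomc at -1.36 lies lower.

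The genes described around Baiap3 did not show a difference of its size. Within 100 kb, Clcn7, Unkl and Gnptg had log2 fold changes of 0.02, 0.06 and 0.001 with overlapping groups. BC003965 was at -0.11, with 484.7, 480.6, 463.4 and 458.1 normalized counts in the Anesthesia mice and 522.2, 511.6, 495.7 and 505.2 in the Control mice, which did not overlap. Tsr3 lies on the opposite strand and its end shares 140 bases with the end of Baiap3, so reads there could be assigned to either gene if strand was not used. For Tsr3 the Anesthesia mean was 234.2 ± 21.9 and the Control mean 238.5 ± 11.5 normalized counts (SD, n = 4 each), the groups overlapped, and the log2 fold change was -0.03.

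The genes whose pattern over the 8 mice was most like that of Baiap3, among 11245 genes with a mean of at least 100, were Suclg2 (Pearson r = 0.989), Cers5 (0.965), Sdc2 (0.949), Rybp (0.940) and Dbp (0.934). These correlations are a description over 8 mice that includes the difference between the groups by which Baiap3 was chosen. Suclg2, a subunit of succinate-CoA ligase, had 292.0, 235.3, 297.0 and 281.5 normalized counts in the Anesthesia mice and 325.3, 323.3, 392.5 and 331.6 in the Control mice. As for Baiap3, Anesthesia replicate 2 was lowest and Control replicate 3 highest, and the log2 fold change was -0.31. When the group means were removed, Suclg2 was again first (r = 0.992), followed by Ppp1r3f (0.975), Arhgap1 (0.968), Cyp4x1 (0.959) and Alms1 (0.952). None of the dense-core vesicle genes was among the genes named here. So few genes were taken from the 11245 that this absence cannot show whether the pattern is shared, and nothing is read from it. Dense-core vesicle genes with a mean under 100, such as Pomc and Sytl4, were not compared.

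The summed hypothalamus markers also separated the groups. Of 13 hypothalamus markers 4 were analysed (Pomc, the most abundant, with Pmch, Avp and Trh), and the other 9, Oxt, Hcrt and Agrp among them, were not analysed here. The 4 summed to 22.2, 43.4, 48.2 and 34.1 normalized counts in the Anesthesia mice and 84.1, 52.3, 135.9 and 139.8 in the Control mice. Every Anesthesia mouse was below every Control mouse, although these sums are small beside the 2849 to 5451 of the CA3 markers. Pmch, the precursor of melanin-concentrating hormone, had 0.924, 1.08, 3.09 and 5.16 against 14.1, 7.66, 32.9 and 13.5 normalized counts. Pmch was the only marker of the 4 whose groups did not overlap, and it was not tested. With the mean log2 level of these 4 markers as a covariate, an alternative chosen after seeing the data, the log2 difference of Baiap3 was -0.74. Under it Cadps2 was at -0.52, Scg2 at -0.40 and Cpe at -0.13 (limma, adjusted p = 0.478, 0.478 and 0.6). Because the marker sums separated the groups, this covariate and the group cannot be told apart. Avp, Pmch and Trh also had means of 6.12, 9.81 and 5.7 normalized counts over the 8 mice, under the minimum of 10 for testing. The part of these markers in the difference of Baiap3 was not tested.

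The choroid plexus sums did not separate the groups. Among the 4 libraries rich in its markers, Baiap3 was 110.6 in Anesthesia replicate 1 and 175.7, 266.8 and 184.4 in Control replicates 2, 3 and 4. Among the 4 poor libraries it was 66.0, 123.3 and 100.3 in Anesthesia replicates 2, 3 and 4 and 170.3 in Control replicate 1. Because Baiap3 was chosen from groups that do not overlap, any division of the libraries shows it lower in the Anesthesia mice, and nothing is read from this division. With the choroid plexus markers as a covariate the log2 difference was -0.89. Without Anesthesia replicate 3, or any other mouse in turn, it stayed between -1.11 and -0.81.

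**Figure D3:**
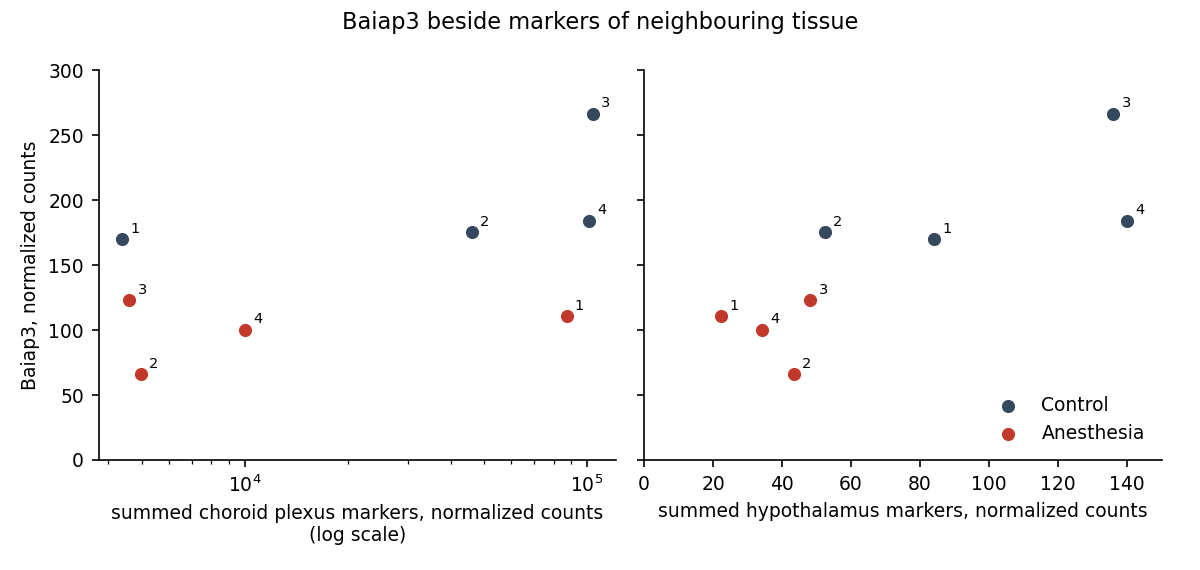
Baiap3 in normalized counts (vertical axis) is plotted against the summed choroid plexus markers on a log scale (left) and the summed hypothalamus markers (right) in each library, with points numbered by replicate and colored by group. Anesthesia points lie at 66.0 to 123.3 and Control points at 170.3 to 266.8 in both panels, while the hypothalamus sums also separate the groups and the choroid plexus sums do not.

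Promoter sequences are shown because granin genes are textbook targets of CREB, which binds the cAMP response element TGACGTCA, and because the question was whether Baiap3 follows the other genes. RefSeq (GRCm38.p6) entries, 250 bases before to 50 after the start of the gene, were matched for 9 of the 10 genes, with Cpe the exception. The letters TGACGTCA, which read the same on both strands, were in 3 of these 9 and in 1.79% of all 32851 entries. The shorter TGACGT or its complement ACGTCA, which every TGACGTCA also contains, was in 5 of the 9 (Scg2, Chgb, Pcsk1, Chga and Scg5) and in 7.51% of all entries. The element began 68 bases before the start in Scg2, 72 in Chgb and 78 in Pcsk1, and TGACGT alone began 44 bases before it in Chga, 50 in Pcsk1 and 175 in Scg5, which also had ACGTCA after the start. These starts are those of RefSeq and differ from the GENCODE gene starts in all 5 of these genes, so that the stretch given for Chgb and most of that for Scg2 lie inside the GENCODE gene. The stretch from 100 to 31 bases before the start is given 5′ to 3′ on the gene's strand, with the matched letters in capitals, for Scg2 (chr1:79440057-79440126, minus), Chgb (chr2:132781542-132781611, plus), Pcsk1 (chr13:75089757-75089826, plus), Chga (chr12:102554841-102554910, plus) and Baiap3 (chr17:25256395-25256464, minus).
Scg2: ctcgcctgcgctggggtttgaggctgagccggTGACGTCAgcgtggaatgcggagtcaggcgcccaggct
Chgb: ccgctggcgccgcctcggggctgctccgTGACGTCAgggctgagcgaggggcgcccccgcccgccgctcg
Pcsk1: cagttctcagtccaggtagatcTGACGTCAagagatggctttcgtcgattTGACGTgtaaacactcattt
Chga: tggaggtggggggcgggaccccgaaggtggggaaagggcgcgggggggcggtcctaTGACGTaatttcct
Baiap3: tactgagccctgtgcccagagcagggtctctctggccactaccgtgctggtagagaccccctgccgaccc

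Neither set of letters was found in the 300 bases of Baiap3, nor in those of Cadps, Cadps2 and Scg3. A match is a description of the sequence and not a binding site, and its absence says only that these letters are not in this stretch. The 5 genes with a match had log2 fold changes of -0.15 (Scg2), 0.06 (Chgb), 0.04 (Pcsk1), 0.03 (Chga) and -0.03 (Scg5), and those without it, Cadps, Cadps2 and Scg3, had 0.06, -0.16 and 0.04.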

How the data were processed

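Hippocampal RNA-sequencing values of 8 mice were compared, 4 in each group, and each column of the table was matched to its mouse by group letter and number. The authors ran Salmon (version 1.1.0) on GRCm38, summarised transcripts per gene and deposited values normalized with DESeq2 (version 1.30.1), so the unit is a normalized signal and not whole reads: 59.1% to 73% of low values lay within 0.1 of a whole number of steps. The annotation release is not given in the sources used here.

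Genes with a mean of at least 10 were compared with limma (version 3.58.1, R version 4.3.3), using log2(value + 1), its trend option and no covariate, a scale that understates the change of low genes. Benjamini-Hochberg adjustment covered all 18865 genes, and adjusted p under 0.05 was the threshold. On simulated data, the script recovered 75.2% of changes of 1 on the log2 scale and 21.4% of changes of 0.35. Of its calls there, 4.94% were false. Changes of moderate size could therefore be missed. Symbols, positions and transcript lengths came from GENCODE M21, which held 20784 identifiers. Levels per kb use the longest coding transcript.

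The genes and lists were chosen with earlier results of these data known. Named were the 10 genes, and in each list the genes whose groups did not overlap, the smallest p in each direction and the most abundant per kb, together with neighbours within 100 kb, the 5 genes most like Baiap3 by either measure, and some chosen after their values were seen. Alternatives were other scalings, filters, a pseudocount of 0.1, a replicate block, a loess correction for GC content and transcript length, marker covariates, and each mouse left out in turn.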

Additional observations from a re-analysis of the deposited data

Results flagged for a closer look

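In 4 of the 54 groups of 4 mice examined, a mouse lay far from the other 3, and chance alone sets apart about 1 in 20 such groups. Baiap3 in Control replicate 3 (266.8 normalized counts against 170.3 to 184.4) was separated from its nearest neighbour by 0.853 of the range of its group. Chga in Anesthesia replicate 2 (970.5 against 1058 to 1062) was separated by 0.959 of the range. Unc13b (3188 against 2564 to 2627) and Pcsk1n (1057 against 808.8 to 840.8) were both set apart in Anesthesia replicate 3, by 0.9 and 0.871 of the range. The cause was not tested.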

How the results depend on the processing

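Because Baiap3 was chosen from groups that do not overlap, its direction under the alternatives is not read as support. Its difference lay between -1.13 with the correction for GC content and transcript length and -0.74 with the hypothalamus covariate, which was chosen after seeing the data. None of the 26 genes whose test was repeated passed an adjusted p of 0.05 in limma under any alternative, and the smallest adjusted p of the 9 other genes was 0.442. The median of those 9 was 0.03 and ranged from -0.02 to 0.03 when single mice were left out. The count of genes with an adjusted p under 0.05 was 0 to 2 with a mouse left out, the 2 without Control replicate 1. The count with an unadjusted p under 0.05 was 830 with the choroid plexus covariate, 873 with the GC and length correction plus a replicate block, 1084 with the replicate block alone, and 1061 to 2022 with a mouse left out, against 1513. Replicate numbers do not pair the mice, since same-numbered mice had correlations of -0.242, -0.109, -0.182 and 0.019, and the replicate block leaves fold changes as they were. With the hypothalamus covariate, list medians were -0.006 for the 9 other genes, -0.014 for docking and release, -0.004 for vesicle formation and sorting, 0.27 for the MUN domain family without Baiap3, 0.072 for granins and chaperones, -0.359 for cargo and 0.082 for transcription factors, and Chga (-0.006), Pcsk5 (-0.019) and Creb1 (0.001) changed sign. The median of vesicle formation and sorting was -0.017 with the GC and length correction, with or without the replicate block. It was -0.014 to 0.023 with a mouse left out. Under the GC and length correction the medians were -0.05 for processing enzymes and -0.043 for transcription factors. With a mouse left out the medians were 0.012 to 0.143 for the MUN domain family, 0.017 to 0.062 for granins and chaperones, -0.054 to 0.024 for processing enzymes, -0.012 to 0.088 for docking and release, -0.21 to -0.04 for cargo and -0.039 to 0.067 for transcription factors, and the log2 fold changes were -0.114 to 0.26 for Pcsk1 and -0.076 to 0.006 for Creb1. The cause of these shifts was not tested. Depth was estimated and not counted, so no counting error is given.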

Other observations

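Oligodendrocyte markers, led by Mbp, had Anesthesia and Control sums of 127502 ± 33400 and 132802 ± 34055 normalized counts, and endothelium and mural cell markers, led by Rgs5, of 7683 ± 678.1 and 7884 ± 601.6 (SD, n = 4 each). The 12 GABAergic interneuron markers analysed, led by Gad1, summed to 18031 ± 1378 and 18348 ± 902.4, and the 5 blood markers, led by Hbb-bs, to 5983 ± 753.0 and 7145 ± 1447. In each of these the values of the groups overlapped.

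Of the 8 astrocyte markers 2 had a log2 fold change above 0 and 6 below, with a median of -0.10. Slc1a2, the main glutamate transporter, had a log2 fold change of 0.17 with overlapping groups, while Slc1a3 (-0.10) and Gja1 (-0.11) had groups that did not overlap. Over all genes tested, 5.04% had groups that did not overlap in either direction. For Slc1a3 the Anesthesia mice had 10789, 11208, 11299 and 10952 normalized counts and the Control mice 11868, 11701, 12001 and 11707. Ependymal markers, led by Foxj1, summed to 412.1 ± 155.4 and 530.0 ± 184.1, and the 5 of them were all below 0 in log2 fold change, as were the 12 choroid plexus, 8 oligodendrocyte, 6 CA3 and 5 blood markers. The oligodendrocyte values lay only between -0.163 and -0.013. Over all 18865 genes tested, 9580 were below 0. Markers of the same tissue are not independent of each other, so these counts are a description. None of these markers had an adjusted p under 0.05 in limma.

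The 8 thalamus and habenula markers analysed, led by Rora, summed to 4269 ± 794.2 and 4416 ± 367.4 normalized counts, and the 11 amygdala and striatum markers, led by Meis2, to 2125 ± 577.3 and 1878 ± 95.4 (SD, n = 4 each), with groups that overlapped in both. Of those 8 thalamus and habenula genes, 6 had a log2 fold change below 0, against 9580 of all 18865 genes, and their median was -0.24. Tcf7l2 (-0.57) and Calb2 (-0.50) had an unadjusted p under 0.05 in limma (0.0189 and 0.0474), and both overlapped between the groups. Over all genes tested, 8.02% had an unadjusted p under 0.05. Dbp, the clock-controlled transcription factor whose values over the 8 mice followed those of Baiap3, had 806.9, 690.5, 777.5 and 682.8 in the Anesthesia mice and 875.0, 867.0, 947.1 and 888.6 in the Control mice.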
